A study of Homo sapiens with 20 samples.

Results

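A375 cells, a human melanoma line that carries an activated BRAF kinase, were given siRNAs against FRA1 (si-FRA1) or a control siRNA without a target (si-NT), and their RNA was sequenced. Each group had 3 libraries, so the comparison rests on 6 of the 12 RNA libraries and of the 20 samples of the series, chosen by the cell line and siRNA in their labels. The remaining RNA libraries came from 1205Lu cells, and Cut&Run with an antibody against FRA1 (3 samples) or IgG (1 sample) was done in A375 cells whose labels name no siRNA. The labels do not say whether the replicates were separate cultures or how long the cells were exposed to siRNA, so the p-values below measure the spread between these libraries only. As far as the labels say the control and the silenced cells differed by the siRNA alone. The sequences of the siRNAs are not given in the sources used here. All 58870 genes of the count table were considered, and 16899 had enough reads to be tested, of which 13598 were protein-coding.

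FRA1 is the protein product of FOSL1. It has a leucine zipper through which it pairs with a JUN protein, and the pair, called AP-1, binds the DNA sequence TGACTCA and its reverse complement TGAGTCA. FRA1 is a product of growth factor and BRAF signalling through the kinase ERK, and in melanoma it belongs with the undifferentiated, invasive state in which cells have low MITF, the master regulator of pigment cells, and high AXL, a receptor tyrosine kinase. An siRNA guides the protein AGO2 to messages that match it, and a short stretch at the start of the guide (the seed, bases 2 to 8) can also pair with the 3'UTRs of messages that were not targeted.

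The libraries held 21621563 to 24686356 counts with si-NT and 23862774 to 32518903 with si-FRA1, and their common biological coefficient of variation was 4.51%. Mitochondrially encoded genes took 10.2% to 10.5% of the counts in all 6 libraries. Protein-coding genes took 92.5% to 92.7% of the counts with si-NT and 89.9% to 90.3% with si-FRA1. Melanoma markers were in part present: SOX10, the neural crest factor of melanoma, lay between 32.3 and 45.0 CPM (a gene's count scaled to the size of its library) in the 6 libraries, whereas the pigment genes MLANA and TYR stayed under 0.54 CPM. The summed melanoma markers were at 2260 to 2270 CPM with si-NT and at 1610 to 1630 CPM with si-FRA1. This drop lay mostly in AXL (720 to 733 CPM against 190 to 197 CPM). VIM, SOX10 and CSPG4 were also lower, whereas MITF, PMEL and S100A1 were higher with si-FRA1. The summed epithelial markers were at 1600 to 1620 and 1480 to 1530 CPM, mostly KRT18. The summed immune markers were at 79.1 to 81.0 and 56.9 to 61.0 CPM, nearly all of it CD68, a lysosomal protein of macrophages (78.2 to 80.1 and 56.6 to 60.2 CPM), while CD3E stayed under 0.17 CPM. No marker of another cell type was at 0 in all 6 libraries. The summed fibroblast markers were at 32.6 to 35.6 CPM with si-NT and at 62.5 to 63.6 CPM with si-FRA1, and the summed endothelial markers at 2.52 to 3.45 and 5.94 to 7.17 CPM. The difference lay mostly in COL1A1 and PDGFRB among the 5 fibroblast markers and in TEK among the 4 endothelial markers, and its part in the results below was not tested. In bulk RNA, fewer cells of a type and less RNA per cell cannot be told apart.

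The FOSL1 gene lies on the minus strand at chr11:65892049-65900573 (GRCh38). FOSL1 itself was at 418, 430 and 414 CPM in the si-NT libraries and at 26.0, 25.9 and 26.3 CPM in the si-FRA1 libraries. All silenced libraries thus sat far below all controls, with a log2 fold change (si-FRA1 over si-NT throughout) of -4.01 ± 0.03 (SE, n = 3 per group, adjusted p = 6.03e-30 by edgeR's quasi-likelihood test). It was the largest fall among the genes named here.

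At an adjusted p under 0.05, 4351 genes had risen (25.7% of the 16899 tested) and 4242 had fallen (25.1%), so that 8306 genes were not called. Most changes were small, with a median size of 0.39 on the log2 scale among called genes. Only 468 genes rose over 2-fold (2.77% of those tested) and 471 fell over 2-fold (2.79%). Rises and falls were thus close to balanced at either limit, and the median over all genes tested was -0.003. The 3 libraries of a group did not overlap with the 3 of the other in 9572 genes (56.6%), which is the background for every gene below whose groups stood apart.

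Genes of the AP-1 family did not move together. Of the 18 members tested, 5 rose and 8 fell, with a median log2 fold change of 0.05. FOSL1, the target of the siRNAs, is counted among the falls. FOSL2, the closest relative of FRA1, was at 114 to 117 CPM with si-NT and at 78.0 to 79.8 CPM with si-FRA1 (log2 fold change -0.56). JUN, a dimer partner of FRA1, fell by 0.48 on the log2 scale. JUNB, another partner, rose from a mean of 31.0 to 60.7 CPM, with no overlap between the groups (log2 fold change 0.97). BATF3 and MAFF, bZIP proteins of related families, fell by 1.28 and 0.76 on the log2 scale. FOS, which is low in these cells (2.41 CPM on average with si-NT), was not called (log2 fold change 0.16, adjusted p = 0.604 by edgeR).

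AXL (chr19:41219223-41261766), CDK6 (chr7:92604921-92836573) and FSCN1 (chr7:5592816-5606655), genes the study followed, all fell. AXL was at 720, 724 and 733 CPM in the controls and at 197, 190 and 193 CPM with si-FRA1, a log2 fold change of -1.91 ± 0.0208. CDK6, a kinase that releases the RB brake on the cell cycle, was at 469, 484 and 473 CPM and fell to 235, 235 and 226 CPM (-1.03 ± 0.0225). FSCN1, which bundles actin in filopodia, went from 113, 114 and 113 CPM to 46.0, 47.1 and 45.4 CPM (-1.29 ± 0.0371). In all 3 genes the highest silenced library lay below the lowest control library, and the difference was many times its standard error (adjusted p = 9.36e-27, 5.31e-21 and 9.76e-19 by edgeR).

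**Figure D1:**
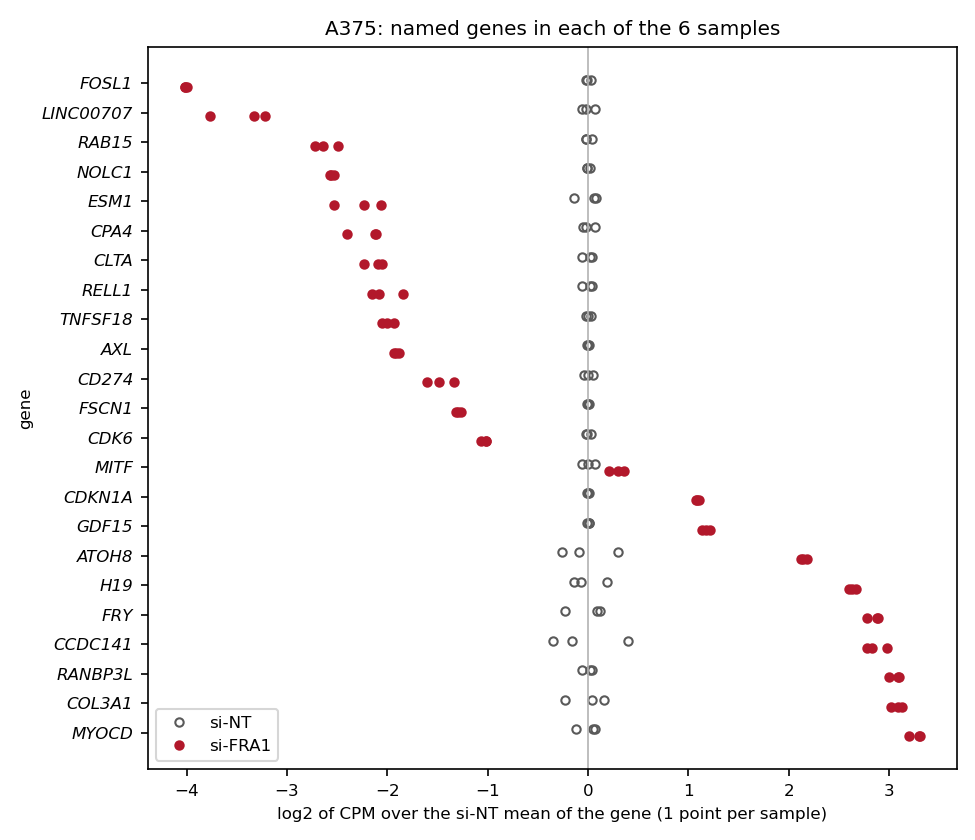
Each point is 1 library, drawn as the log2 of its CPM over the si-NT mean of that gene (x axis), for 23 genes (y axis), with si-NT as open grey circles and si-FRA1 as filled red circles. The silenced libraries stand clear of the controls in every gene drawn, from FOSL1 at about 4 units below to MYOCD at about 3 units above, and MITF shows the smallest shift (0.29).

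Of the 12 genes with the largest falls among those with a mean of at least 100 counts, 11 are given here. After FOSL1 came the long non-coding RNA LINC00707, which went from 63.4, 65.4 and 69.6 CPM to 6.57, 4.85 and 7.09 CPM (log2 fold change -3.41). RAB15, a small GTPase of endosome recycling, dropped from 58.8 to 61.4 CPM in the controls to 9.06 to 10.6 CPM (-2.62). NOLC1, a nucleolar chaperone of snoRNP particles, was at 257 to 264 CPM and fell to 43.6 to 44.9 CPM (-2.56). CLTA, a clathrin light chain, and RELL1, a relative of the TNF receptor family member RELT, fell by 2.12 and 2.02 on the log2 scale. ESM1, a secreted proteoglycan of endothelial cells, CPA4, a secreted carboxypeptidase, and TNFSF18, the ligand of the costimulatory receptor GITR, fell by 2.27, 2.22 and 2.00. AL355488.1, annotated as antisense, and LHFPL6, a tetraspan membrane protein, had lower values (8.86 and 7.20 CPM on average with si-NT) and had log2 fold changes of -2.10 and -2.03. The strand setting of the counting is not given in the sources used here, so the value of the antisense gene is uncertain. The rule took only genes whose groups did not overlap.

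Among other genes listed by name, the PD-L1 gene CD274 went from 37.5, 38.6 and 40.0 CPM to 15.3, 12.7 and 13.8 CPM (log2 fold change -1.46). NF2, which encodes the tumour suppressor merlin upstream of the Hippo kinases, went from 18.1 to 18.9 CPM to 4.55 to 5.95 CPM (-1.79). KIAA0040 fell by 1.17. In the other direction, GDF15, a stress-induced cytokine, rose from 27.4 to 27.7 CPM to 60.5 to 64.0 CPM (1.18), and A2M, a broad protease inhibitor, from a mean of 1.77 to 5.55 CPM (1.64). MITF rose from 50.7 to 55.4 CPM to 61.2 to 67.9 CPM, a log2 fold change of only 0.29 (adjusted p = 2.22e-05 by edgeR).

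By the same rule the largest rise was that of HIST2H2AA3 (5.52), a histone gene with a near-identical copy, HIST2H2AA4, that fell by 0.68 from a far higher level (574 to 358 CPM). Reads can be split between such copies by the counting, and the value of either copy alone is uncertain. AC009412.1 was at 0 counts in 2 of its 3 si-NT libraries, rose to 9.36 to 11.5 CPM, and was no longer called with DESeq2 (adjusted p = 0.0626). RNU1-1, RNU1-3, RNVU1-18 and RNU1-28P, copies of the U1 spliceosomal RNA, carried the same value (2.50) and cannot be told apart.

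MYOCD, the muscle co-activator of the factor SRF, was at 1.08 to 1.24 CPM with si-NT and at 10.8 to 11.7 CPM with si-FRA1 (log2 fold change 3.27). COL3A1, a fibrillar collagen, rose from 0.963 to 1.26 CPM to 9.18 to 9.87 CPM (3.07), and RANBP3L, a nuclear export adaptor, from 1.24 to 1.32 CPM to 10.3 to 11.1 CPM (3.06). CCDC141 and FRY, which act in neuron migration and in cell shape, rose by 2.86 and 2.85. The imprinted non-coding RNA H19 was at 4.31, 5.38 and 4.50 CPM in the controls and at 29.4, 30.1 and 28.6 CPM with si-FRA1 (2.63). These genes were low in the controls, and the rule again took only genes whose groups did not overlap.

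Gene lists are described next by how many of their tested members rose or fell, to be read against 25.7% and 25.1% of all genes tested, and by their median log2 fold change, to be read against -0.003. Nearly all lists hold protein-coding genes, for which the background is higher. Of 13383 protein-coding genes with a reference 3'UTR, other than FOSL1, 30.2% rose and 27.9% fell, with a median of 0.015. The lists were written with earlier results of these data known, so their counts and medians are a description. No test was run on a list.

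**Figure D2:**
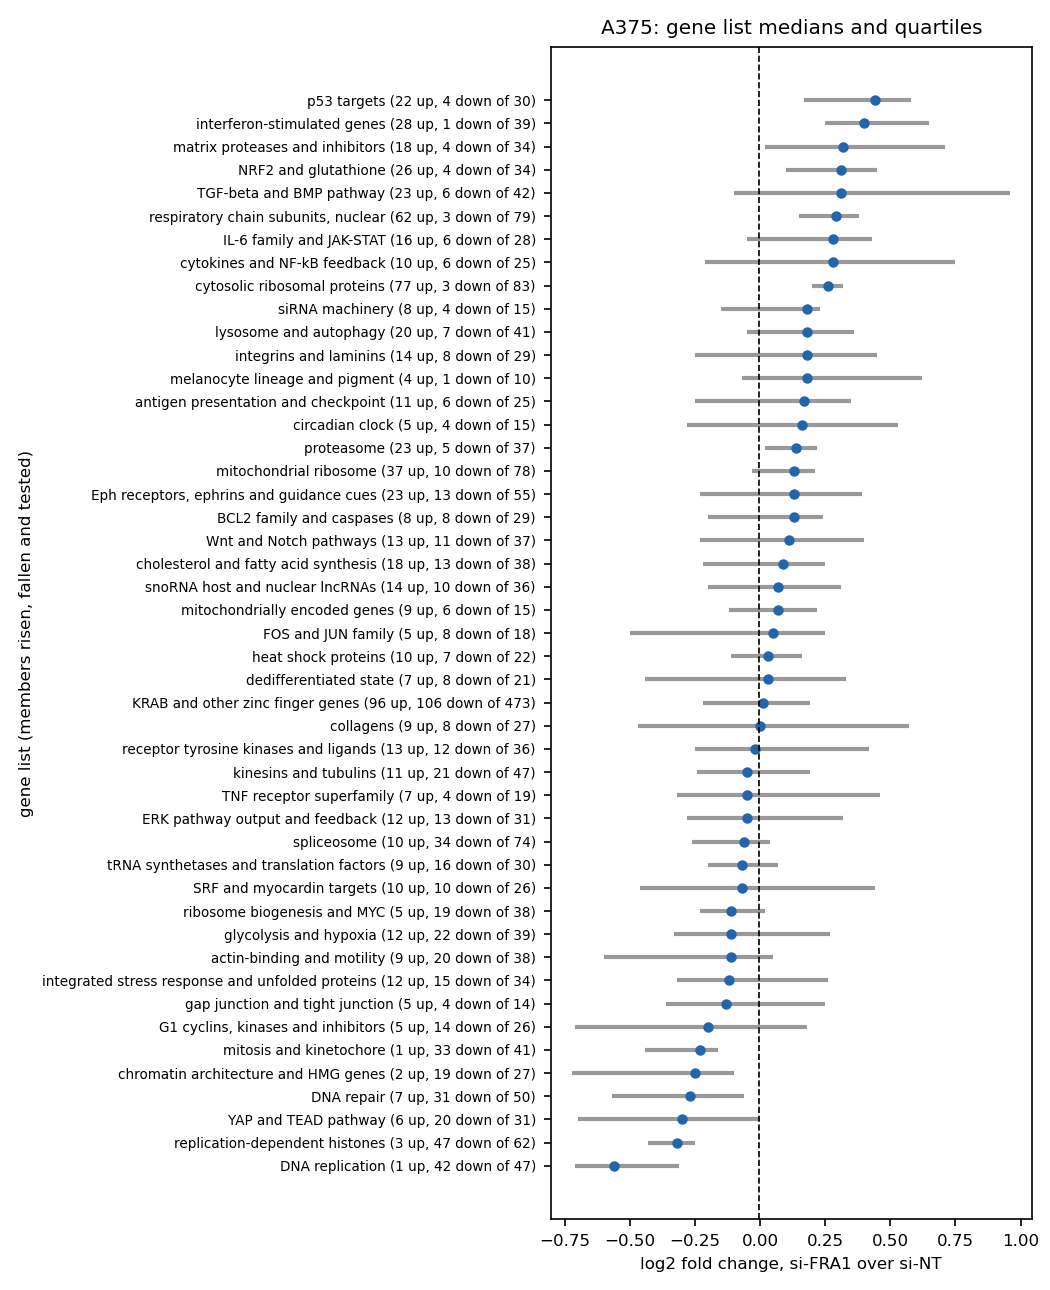
The x axis gives the log2 fold change, si-FRA1 over si-NT, and each row is a gene list with the number of its members that rose or fell of those tested. Points are list medians, grey bars run from the lower to the upper quartile of the members, and the dashed line is the median of all genes tested (-0.003). DNA replication is lowest at -0.56 and p53 targets are highest at 0.44.

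Most genes of the cell cycle were lower with si-FRA1. In DNA replication, 42 of 47 members fell and 1 rose, with a median of -0.56. Every subunit of the MCM helicase, which unwinds DNA at origins, was lower, led by MCM4, at 307, 300 and 294 CPM in the controls and 157, 161 and 153 CPM with si-FRA1 (log2 fold change -0.94). CDT1, which loads that helicase, fell by 1.06, and POLA2, a subunit of the primase polymerase, by 1.16. ORC6 of the origin recognition complex fell by 0.99 (32.7 to 16.4 CPM on average), whereas its neighbour in the complex ORC4 was the single member that rose (0.33). PCNA, the sliding clamp, fell by only 0.20. Of the 47 members, 15 had a FRA1 peak at the promoter (31.9%, against 35.0% of all protein-coding genes tested, described below). Among the 42 members without the 7-base site described below, 37 fell, against 26.2% of all 11343 genes without it. The part of peaks or sites in these falls was not tested.

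The genes that carry cells from G1 into S phase went in both directions. Of 26 tested, 14 fell and 5 rose, with a median of -0.20. The falls included CDK6, the D-type cyclin CCND2 (176, 168 and 170 CPM to 88.3, 85.4 and 89.5 CPM, log2 fold change -0.96), CDK2 (-0.86) and the activating factors E2F2 (-1.40) and E2F1 (-0.53). The inhibitors of cyclin-dependent kinases CDKN1A, which encodes p21, and CDKN1B, which encodes p27, rose. CDKN1A was at 186, 188 and 187 CPM in the controls and at 402, 398 and 395 CPM after silencing (1.09 ± 0.0222), and CDKN1B at 37.1, 37.5 and 39.0 against 60.5, 60.6 and 63.4 CPM (0.70 ± 0.047). The inhibitor CDKN2C went the other way (-0.97). CCND1, the main D-type cyclin of melanoma, was not called (347 and 344 CPM on average, log2 fold change -0.01, adjusted p = 0.668 by edgeR).

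Replication-dependent histone genes, which are made in S phase, fell in 47 of 62 members with 3 rising and a median of -0.32. HIST2H2BF, HIST1H2BM and HIST1H2AI fell by 0.57, 0.68 and 0.58, and many members have close copies, so that the count is firmer than any single value. In mitosis and kinetochore genes 33 of 41 fell and 1 rose, with a median of -0.23. AURKB and INCENP, partners in the chromosomal passenger complex, had log2 fold changes of -1.01 and -0.91, and FOXM1, the factor that drives this gene programme, of -0.93. MKI67, the proliferation marker Ki-67, fell by 0.44. The centromere protein gene CENPF was the 1 member that rose, by 0.10. DNA repair genes fell in 31 of 50 members and rose in 7, with a median of -0.27. RAD54L and XRCC2, of homologous recombination, were at -1.20 and -1.05, EXO1, an exonuclease, at -1.07, and BRCA1 at -0.78, all past the test. ERCC4 (0.39) and LIG4 (0.37) rose. Chromatin genes fell in 19 of 27 members and rose in 2, with a median of -0.25. HELLS, a remodeller needed for DNA methylation, went from 106 to 112 CPM to 37.4 to 40.2 CPM (-1.50), and UHRF1 and the histone chaperones ASF1B and CHAF1B were at -0.92, -0.98 and -0.91. HMGA2, an architectural protein, rose by 0.88.

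Targets of p53 rose in 22 of 30 members and fell in 4, with a median of 0.44. Beside GDF15 and CDKN1A, the antiproliferative gene BTG2 (20.9 to 44.1 CPM on average, log2 fold change 1.08), TP53INP1 (1.01), SESN1 (0.92) and RRM2B, the p53-induced ribonucleotide reductase subunit (0.92), rose. Among genes of this list that promote cell death, BAX fell by 0.20, while PMAIP1, which encodes NOXA, and the death receptor FAS rose by 0.24 and 0.48. In the BCL2 family and caspases, 8 of 29 rose and 8 fell (median 0.13). The survival genes BCL2L1 and BCL2L2 fell by 0.41 and 0.63, and MCL1 was not called (-0.02).

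**Figure D3:**
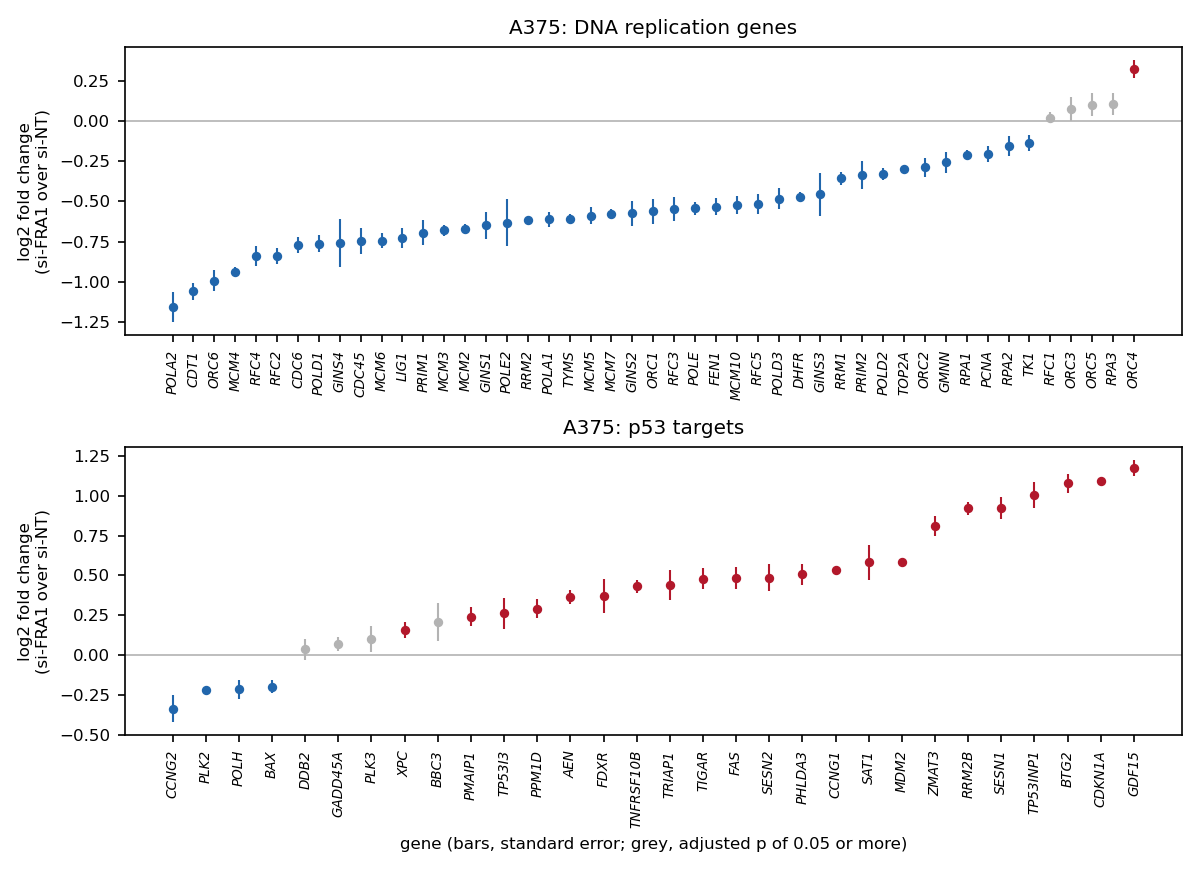
Log2 fold changes, si-FRA1 over si-NT (y axis), of every tested member of the DNA replication list (top) and of the p53 target list (bottom), sorted by value, with bars for the standard error. Blue members fell, red members rose and grey members were not called. Replication genes run from POLA2 at -1.16 to ORC4 at 0.33, and p53 targets from CCNG2 at -0.33 to GDF15 at 1.18.

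The pathway of transforming growth factor beta (TGF-beta) and bone morphogenetic proteins (BMP) signals through receptors that phosphorylate SMAD factors, which switch on feedback inhibitors and the ID genes. Of its 42 tested members, 23 rose and 6 fell, with a median of 0.31, and 10 rose over 2-fold. The ligand TGFB2 was at 12.8, 9.88 and 11.1 CPM in the controls and at 45.0, 48.7 and 43.2 CPM with si-FRA1 (log2 fold change 2.02 ± 0.0773). FST, a secreted trap for activin, moved the opposite way, from 192, 194 and 198 CPM to 61.7, 55.6 and 57.6 CPM (-1.73 ± 0.0356). Of the SMAD target genes, the inhibitory SMAD7 rose by 1.76, ID1 by 1.62, ID3 from a mean of 8.65 to 24.4 CPM and the endothelial factor ATOH8 by 2.16 (3.37 to 4.95 CPM against 17.6 to 18.3 CPM). MGP, an inhibitor of BMP, rose from 0.803 to 1.19 CPM to 2.79 to 4.09 CPM (1.74). SMAD3 was not called (-0.03), SMAD4 fell by 0.15, and SKI, a repressor of SMADs, fell by 0.57.

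Genes of the extracellular matrix and its receptors moved in both directions. In collagens 9 of 27 rose and 8 fell, with a median of 0.00. The fibrillar chains COL3A1, COL5A1 (1.45) and COL1A1 (0.96) were among the rises, and the basement membrane chains COL4A3 (-2.19) and COL4A4 (-0.78) and the network-forming COL8A1 (-1.04) among the falls. In integrins and laminins 14 of 29 rose and 8 fell (median 0.18). ITGA1, a collagen receptor subunit, rose from 135 to 143 CPM to 382 to 388 CPM (1.47), ITGAV and ITGB3, which pair as the vitronectin receptor, rose by 0.77 and 0.75, and ITGB4, of hemidesmosomes, fell by 1.09. In matrix proteases and inhibitors 18 of 34 rose and 4 fell (median 0.32). The plasminogen activators split: PLAU, the urokinase gene, rose from a mean of 1.79 to 5.48 CPM (1.61), and PLAT, the tissue-type enzyme gene, fell from 80.5 to 29.0 CPM (-1.46). ADAMTS5, an aggrecanase, rose from 47.4 to 49.5 CPM to 139 to 150 CPM (1.58), and ADAMTS6 fell from a mean of 19.7 to 7.09 CPM. MMP2 and MMP14 rose by 0.44 and 0.41, and MMP1 was not called (0.18, adjusted p = 0.0606 by edgeR).

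Actin-binding and motility genes fell in 20 of 38 members and rose in 9, with a median of -0.11. Beside FSCN1, the falls were led by WASF1 and WASF3, activators of branched actin in lamellipodia, with log2 fold changes of -1.79 (48.2 to 14.0 CPM) and -1.53 (20.1 to 6.95 CPM). ARPC5, a subunit of the Arp2/3 complex that WASF proteins switch on, fell from a mean of 117 to 54.7 CPM, CORO1C from 240 to 120 CPM and the focal adhesion gene ZYX from 377 to 203 CPM. TMSB4X, which sequesters actin monomers, rose by 0.94. In targets of SRF and myocardin, 10 of 26 rose and 10 fell (median -0.07). SRF itself went from 52.9 to 56.8 CPM to 13.9 to 17.1 CPM (-1.84), non-muscle myosin MYH9 fell by 1.09, SMTN by 1.16 and MRTFA, a co-activator of SRF, by 0.64, while its muscle co-activator MYOCD and the intermediate filament gene DES (2.32) rose from means near 1 CPM or less. MYL9 and FHL1 rose by 0.75 and 0.73.

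The YAP and TEAD pathway, which reads cell contact and tension, fell in 20 of 31 members and rose in 6, with a median of -0.30. FOSL1 and AXL belong to this list. NF2, the clotting initiator F3 (-1.65), the DNA-binding partners TEAD3 (-1.27) and TEAD4 (-0.67), and the co-activator WWTR1, which encodes TAZ (390 to 200 CPM on average, -0.96), fell, as did the target CCN1 (446 to 233 CPM, -0.94). YAP1 fell by 0.23 and the target CCN2 by 0.15. LATS1, a kinase of the pathway, was not called (log2 fold change 0.00). Of receptor tyrosine kinases and ligands, 13 of 36 rose and 12 fell (median -0.02). Beside AXL, the EGFR ligand AREG (-1.80) and EGFR (219 to 140 CPM, -0.64) fell, and the KIT ligand KITLG (1.23), PDGFRB (0.80) and MERTK, a relative of AXL (0.98), rose.

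State markers of melanoma moved gene by gene. In the dedifferentiated state list, 7 of 21 rose and 8 fell (median 0.03). AXL, IGFBP3 (-1.18), SOX9 (114 to 57.2 CPM on average) and CD44 (-0.44) fell, while the factors SOX2 (0.87), ZEB1 (0.42) and ZEB2 (0.26) rose. FN1 and TWIST1 were not called (-0.03 and 0.20). In the melanocyte lineage and pigment list only 10 of 20 members could be tested. There 4 rose and 1 fell (median 0.18): EDNRB, an endothelin receptor of the lineage, rose by 1.05, GPNMB by 0.66 and MITF by 0.29, and SOX10 fell by 0.44.

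Genes that report or restrain ERK signalling moved in both directions. Of 31 members, 12 rose and 13 fell (median -0.05). The feedback inhibitors SPRY1 (12.2 to 31.4 CPM on average, log2 fold change 1.37), SPRY2 (0.64), SPRY4 (0.43) and the ERK phosphatase gene DUSP6 (0.69) rose. MYC and the phosphatase gene DUSP5 fell by 0.88 and 0.64. Ribosome biogenesis, a programme MYC drives, fell in 19 of 38 members and rose in 5 (median -0.11), with NOLC1 by far the largest fall and most of the others small, such as NOP56 at -0.43 and BOP1 at -0.42.

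Interferon-stimulated genes rose in 28 of 39 members and fell in 1 (OAS3, -0.36), with a median of 0.40. Most were low, such as BST2, an antiviral tether, which went from 1.01 to 2.61 CPM to 4.46 to 6.68 CPM (log2 fold change 1.59), and XAF1 and IFI44L (1.21 and 1.16). IRF9, a subunit of the interferon-activated factor, rose from a mean of 5.91 to 11.6 CPM (0.96), and IRF1 by 0.48. In antigen presentation and checkpoint genes 11 of 25 rose and 6 fell (median 0.17). TAPBP, which loads peptides on class I molecules, fell from 131 to 142 CPM to 52.8 to 53.6 CPM (-1.37), as did CD274 and the peptide transporter subunit TAP2 (-0.58), while B2M (0.35), HLA-E (0.47) and the stress ligand MICA (0.56) rose. In cytokines and NF-kB feedback 10 of 25 rose and 6 fell (median 0.28). The monocyte attractant CCL2 rose from a mean of 2.78 to 12.4 CPM (2.17), IL6 by 1.26, and the inhibitors TNFAIP3, NFKBIZ and NFKBIA by 1.04, 0.85 and 0.75, while CCL28 (-1.14), CXCL1 (-0.98) and IL11 (-0.97) fell. This median, less that of all genes, was 0.286 and went to 0.116 without the si-FRA1 library of replicate 1. Of the IL-6 family and JAK-STAT genes 16 of 28 rose and 6 fell (median 0.28), with the shared receptor IL6ST going from 233 to 405 CPM (0.79).

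Growth, energy and stress genes showed broad but small shifts. Cytosolic ribosomal proteins rose in 77 of 83 members and fell in 3, with a median of 0.26 and quartiles of 0.20 and 0.32, and none changed over 2-fold. RPS20, RPS29 and RPL31 rose by 0.49, 0.45 and 0.45, and the paralog RPL7L1 fell by 0.75. Nuclear genes of the respiratory chain rose in 62 of 79 members and fell in 3 (median 0.29), led by the complex I genes NDUFA4 (0.70), NDUFA13 (0.67) and NDUFA1 (0.67), with ATP5F1D falling by 0.41. Mitochondrial ribosome genes rose in 37 of 78 and fell in 10 (median 0.13), among them MRPL49 (-1.17) and MRPS14 (-0.97). Of the mitochondrially encoded genes 9 of 15 rose and 6 fell (median 0.07), with no change beyond 0.42. The proteasome rose in 23 of 37 members and fell in 5 (median 0.14).

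The direction of such small shifts moved with base composition. Over 13567 protein-coding genes the log2 fold change had a rank correlation of -0.24 with the GC content of the gene's reference transcript, given as a description across genes that share 6 libraries. Of 5 classes of equal size, the one with the lowest GC content, 30.7% to 40.5%, had a median of 0.15, and the one with the highest, 58.3% to 74.4%, had a median of -0.13. Transcript length had a weaker relation (-0.06), and the class of shortest transcripts had a median of 0.07. The ribosomal protein and respiratory chain lists had median GC contents of 47.4% and 47.2% and median lengths of 785 and 758 bases. The DNA replication list had 45.9% and 3068 bases. These GC medians lie in the range of the middle class, 45.2% to 51.5%. That class had a median log2 fold change of 0.00, with 29.0% of its genes risen and 28.9% fallen. The part of base composition in any list was not tested.

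NRF2 and glutathione genes rose in 26 of 34 members and fell in 4 (median 0.31). The quinone reductase NQO1 went from a mean of 261 to 490 CPM (log2 fold change 0.91), the ferritin light chain FTL rose by 0.84, and the aldo-keto reductases AKR1C1, AKR1C2 and AKR1C3, which share much sequence, rose by 1.71, 1.19 and 1.19. GPX8, a peroxidase of the endoplasmic reticulum, and GCLM, which limits glutathione synthesis, fell by 1.28 and 0.95. In the integrated stress response and unfolded protein list, 12 of 34 rose and 15 fell (median -0.12), with ASNS and PSPH, amino acid synthesis genes under ATF4, at -0.72 each, and DNAJB9 at 0.83. Glycolysis and hypoxia genes fell in 22 of 39 and rose in 12 (median -0.11), with CA9 at -1.51, HK2 at -0.73 and PDK1 at -0.75. Cholesterol and fatty acid synthesis rose in 18 of 38 and fell in 13 (median 0.09), with the exporter ABCA1 at 1.04 and FASN at -0.50. Lysosome and autophagy genes rose in 20 of 41 and fell in 7 (median 0.18), with their regulator TFEB at 1.04 and the kinase ULK1 at -0.53. Heat shock proteins rose in 10 of 22 and fell in 7 (median 0.03), with the small chaperone CRYAB at 3.06 from a mean of 0.231 CPM.

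In translation and splicing, falls outnumbered rises and single large falls stood out. Of tRNA synthetases and translation factors 16 of 30 fell and 9 rose (median -0.07), and EIF4G1, the scaffold of the cap-binding complex, went from 672 to 688 CPM to 294 to 311 CPM (log2 fold change -1.17). Of spliceosome genes 34 of 74 fell and 10 rose (median -0.06), and SF3A1, of the U2 particle, went from 225 to 236 CPM to 82.2 to 84.4 CPM (-1.47). SF3A2, its partner, fell by 0.98. The machinery of small RNAs rose in 8 of 15 members and fell in 4 (median 0.18), with AGO2 at 0.43, DICER1 at 0.33 and DROSHA at -0.48.

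The remaining families were mixed. KRAB and other zinc finger genes rose in 96 and fell in 106 of 473 members (median 0.01), and kinesins and tubulins rose in 11 and fell in 21 of 47 (median -0.05). Eph receptors, ephrins and guidance cues rose in 23 and fell in 13 of 55 (median 0.13), with the semaphorins SEMA3C (1.12) and SEMA3D (1.09) up and ROBO4 (-1.43) down. Wnt and Notch pathway genes rose in 13 and fell in 11 of 37 (median 0.11), with the repressor TCF7L1 at -1.93 and the Notch ligand JAG1 at 0.81. The TNF receptor superfamily rose in 7 and fell in 4 of 19 (median -0.05). This median has no firm direction, since less that of all genes it was 0.176 among genes with at least 10 counts in each library and ran from -0.117 to 0.139 without 1 library. Gap junction and tight junction genes rose in 5 and fell in 4 of 14 (median -0.13, and -0.181 to -0.065 on the same scale without 1 library), and clock genes rose in 5 and fell in 4 of 15 (median 0.16), with BHLHE40 at 0.88.

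Non-coding RNAs also differed between the groups. MALAT1, an abundant nuclear RNA of speckles, was at 14590, 14440 and 14530 CPM in the controls and at 25380, 26040 and 26320 CPM with si-FRA1 (log2 fold change 0.84 ± 0.00833), and its neighbour NEAT1, the scaffold of paraspeckles, at 1104 to 1107 and 1957 to 1981 CPM (0.83). Of snoRNA host genes and nuclear lncRNAs as a list, 14 of 36 rose and 10 fell (median 0.07), with KCNQ1OT1 at 0.88, SNHG25 at 1.23 and OIP5-AS1 at -0.87. The pseudogene transcript PGM5P2, which has close relatives in the genome, and the lincRNA AC074135.1 fell by 1.83 and 1.59. Small structured RNAs took a larger share with si-FRA1, given here in percent of the scaled library totals that CPM values use. The class that holds signal recognition particle and 7SK RNAs was at 2.05% to 2.12% with si-NT and at 2.98% to 3.21% with si-FRA1. Small nucleolar RNAs were at 0.111% to 0.116% and at 0.157% to 0.172%. These classes moved with the silenced group in every library, and their part in other results was not tested.

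Cut&Run in A375 cells gives a second readout of the same line. Of 54563 peaks, 31310 had at least 10 FRA1 counts in each of the 3 samples and reached 4 times the count of IgG plus 1, and 34.0% of these held TGACTCA or TGAGTCA within 100 bases of the peak centre. A promoter was counted as bound when such a peak lay within 3 kb of a transcription start in the GENCODE annotation of GRCh38. Of the genes that fell over 2-fold, 120 of 337 protein-coding genes were bound (35.6%, 95% Wilson interval 30.7% to 40.9%, which covers counting error only). Of those that rose over 2-fold, 123 were bound (32.8%, 28.2% to 37.7%). Both shares lay close to that of all 13566 genes considered (35.0%, 34.2% to 35.8%). At 8 times IgG plus 1, 23.4% of fallen genes (19.2% to 28.2%), 18.1% of risen genes (14.6% to 22.3%) and 15.1% of all genes (14.5% to 15.7%) were bound. At 2 times IgG plus 1, the shares were 51.3% (46.0% to 56.6%), 42.1% (37.2% to 47.2%) and 53.7% (52.8% to 54.5%). The order of fallen and all genes thus turned with the limit, and all genes include the changed ones. Among genes not called, the shares were 30.7% (29.5% to 31.9%) at 4 times IgG plus 1. They were 48.1% (46.8% to 49.4%) at 2 times and 12.2% (11.4% to 13.1%) at 8 times. Fallen genes were above these shares at each limit, with intervals that overlapped at 2 and 4 times. Risen genes were above them at 4 and 8 times and below them at 2 times. The IgG comparison has 1 sample and unscaled counts, and no test was run. Counts over all peaks were 3354095, 5316527 and 4256577 for FRA1 and 383994 for IgG, so that raw counts at a peak are to be read against these totals.

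**Figure D4:**
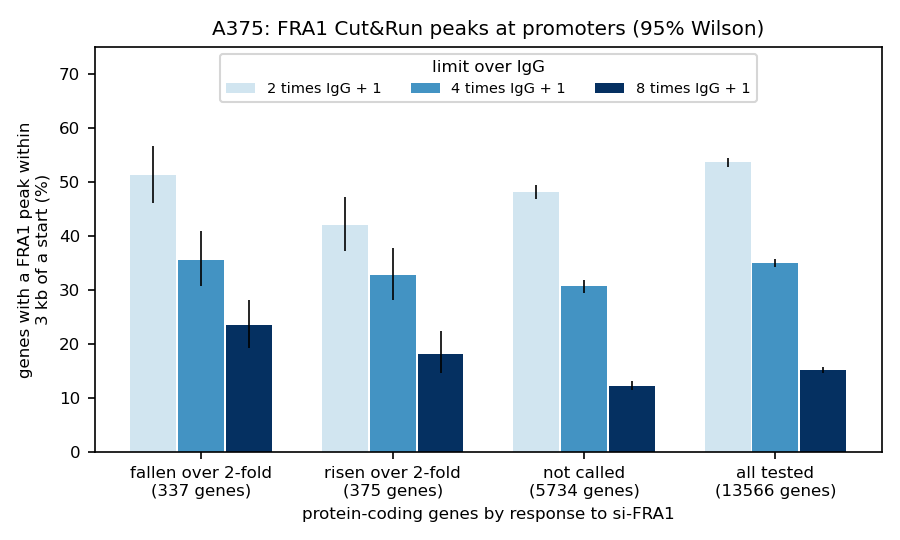
Bars give the share of protein-coding genes (y axis, percent) with a FRA1 peak within 3 kb of a transcription start, for genes fallen or risen over 2-fold with si-FRA1, genes not called and all genes tested (x axis), at 3 limits over IgG, with 95% Wilson intervals. At 4 times IgG plus 1 the shares run from 30.7% to 35.6%.

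Among named genes, AXL had a peak 165 bases from one of its annotated starts, inside the gene at chr19:41225180-41226590 in GRCh38, with 592, 837 and 687 FRA1 counts against 18 for IgG. CPA4 had one across its start, chr7:130292452-130293650 (272, 392 and 350 against 16), and so did GDF15, which rose, at chr19:18373981-18375089 (74, 112 and 94 against 11). FSCN1 (236, 365 and 292 against 27), NOLC1 (576, 798 and 721 against 24) and CDKN1A (211, 345 and 303 against 22) had peaks across a start that held no TGACTCA or TGAGTCA within 100 bases of the centre. The strongest CDK6 peak within 3 kb of a start, chr7:92831492-92832537 (216, 331 and 279 against 11), also held neither sequence there. Within 3 kb, 11.3% of genes fallen over 2-fold, 12.3% of those risen and 9.59% of all genes had a peak with either sequence. Within 50 kb, 79.0% of all genes had a peak and 44.4% had a peak with either sequence. The strongest of 15 peaks within 50 kb of a CDK6 start lay 26295 bases from one, at chr7:92752005-92752876 (464, 791 and 645 against 19). FST had its strongest peak 9758 bases from a start, at chr5:53469856-53470868 (171, 316 and 291 against 13). The bases around the match nearest the centre of these peaks are shown from the plus strand of GRCh38, with the AP-1 sequence in capitals, because these are the AP-1 sequences nearest the centres of peaks at genes that fell or rose.
AXL, chr19:41225891-41225919: gtccctctatcTGACTCAgggcgtgcccc
CPA4, chr7:130293102-130293130: ttttgaggactTGAGTCActctcagactc
GDF15, chr19:18374593-18374621: cccagccctgcTGACTCAtactcagctgc
CDK6, distal, chr7:92752426-92752454: aaagaatgcagTGAGTCAttaggaccaca
FST, distal, chr5:53470341-53470369: gttctgtagaaTGACTCAccttctggatt

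A 7-base sequence, GAGTAGC, occurs once in the FOSL1 transcript, at position 799 inside the coding sequence, and it had been singled out in earlier work on these data, so its values are a description. Of 13383 protein-coding genes with a reference 3'UTR other than FOSL1, 2040 (15.2%) held it there on the strand of the message. It was in 107 of the 330 genes that fell over 2-fold (32.4%) and in 33 of the 370 that rose over 2-fold (8.92%). Genes without the sequence had a median log2 fold change of 0.031, those with 1 site -0.065, those with 2 sites -0.148 and those with 3 or more -0.186. The share fallen over 2-fold was 1.97%, 4.85%, 6.23% and 8.79% in the same order. Genes with more sites have longer 3'UTRs (medians of 1318, 3333, 5039 and 6844 bases). Among 3'UTRs under 500 bases, 3.57% of 28 genes with a site and 1.71% of 2452 genes without one fell over 2-fold. The shares were 6.32% of 95 and 1.88% of 2179 at 500 to 1000 bases, 8.81% of 329 and 2.27% of 2821 at 1000 to 2000, 6.29% of 684 and 2.06% of 2676 at 2000 to 4000, and 3.10% of 904 and 1.73% of 1215 at 4000 or more. Lengths still differed within classes (medians of 5194 bases without and 6031 with a site in the last), and the part of length was not tested.

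**Figure D5:**
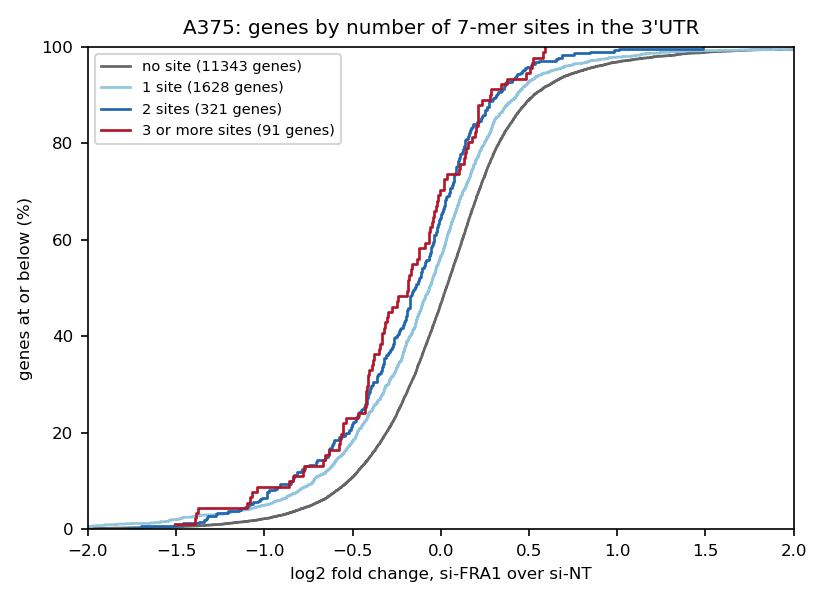
Cumulative share of genes (y axis, percent) at or below each log2 fold change, si-FRA1 over si-NT (x axis, drawn from -2 to 2), for genes with 0, 1, 2 or 3 or more GAGTAGC sites in a reference 3'UTR. The curves shift to lower values with more sites, with medians of 0.031, -0.065, -0.148 and -0.186.

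Genes with longer matches to the FOSL1 transcript, counted toward the 5' end only, had lower medians. Genes whose best site matched 7 bases had a median of -0.066, those that matched 8, counting on toward the 5' end, -0.127, those that matched 9 -0.196, and the 20 genes that matched 10 or more -0.321, of which 60.0% had fallen. In 876 genes every site was followed by TGGG, a run found in Alu repeats, and these had a median of -0.044, against -0.126 for the 1164 genes with another kind of site. The sequences below show the FOSL1 site and sites of genes named above, written 5' to 3' on the strand of the message with the 7 bases in capitals. They are shown because they let the flanks be compared between genes that fell.
FOSL1, coding sequence, chr11:65892938-65892964: agctcatcgcaaGAGTAGCagcagcag
RAB15, 3'UTR, chr14:64946882-64946908: catatggcccaaGAGTAGCtcgtagga
CLTA, 3'UTR, chr9:36211986-36212012: gaagcttcccaaGAGTAGCctcaacct
GPX8, 3'UTR, chr5:55164468-55164494: agcaaaaatcaaGAGTAGCcaaagaat
SF3A1, 3'UTR, chr22:30334395-30334421: ccacattggtaaGAGTAGCtgggtttt
MYH9, 3'UTR, chr22:36281602-36281628: ttgtttagaagaGAGTAGCtcgtcctc
WASF1, 3'UTR, chr6:110100241-110100267: cagctgttgttaGAGTAGCagattcag
NOLC1, 3'UTR, chr10:102162458-102162484: tttttgagtgttGAGTAGCagggacaa
CDK6, 3'UTR, chr7:92609568-92609594: ggtgagcaaaatGAGTAGCacatcagt

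Counted from the 7 bases toward the 5' end only, RAB15, CLTA and GPX8 matched the FOSL1 transcript over 10 bases and SF3A1 over 9. MYH9 and WASF1 matched over 8, and NOLC1 and CDK6 over 7. Bases that match on the 3' side, as in WASF1, NOLC1 and CDK6, were not counted. RELL1, SRF, CPA4, TNFSF18, LHFPL6, ARPC5 and TAPBP also held the sequence, and AXL, FSCN1, ESM1, CD274, FST, HELLS and EIF4G1 did not. CDK6 thus held both the 7 bases in its 3'UTR and FRA1 peaks near its starts, as did NOLC1, CPA4, RELL1, SRF, TNFSF18, RAB15 and MYH9. CLTA, GPX8, SF3A1, WASF1, LHFPL6, ARPC5 and TAPBP held the sequence without a FRA1 peak within 3 kb of a start. AXL and FSCN1 held FRA1 peaks and no such site. Peaks near a start are to be read against 35.0% of all genes considered. With genes that hold a site left out, the median of actin-binding and motility genes went from -0.11 to -0.08, of the YAP and TEAD pathway (which here leaves out FOSL1) from -0.30 to -0.10, of G1 genes from -0.20 to -0.03 and of SRF and myocardin targets from -0.07 to 0.19, while that of DNA replication went from -0.56 to -0.54 and that of DNA repair from -0.27 to -0.26. These steps cannot show what the sequence does, since it was singled out in these same data and is more frequent among fallen genes. Leaving out its holders can therefore raise a median by itself, and no other sequence was left out for comparison. FOSL1, the target, counts in the first YAP and TEAD value only. The part of the sequence in any of these falls was not tested, since the sequences of the siRNAs are not given in the sources used here.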

How the data were processed

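Total RNA of A375 cells was sequenced from strand-specific libraries. The authors trimmed reads with cutadapt 1.8.1, aligned them to GRCh38 with STAR 2.7.7a and estimated expected counts per gene with RSEM 1.3.0, and the deposited values are whole numbers. For Cut&Run, the authors aligned reads with Bowtie2 2.4.1, called peaks with MACS2 2.1.1.20160309 and deposited raw counts per consensus peak in each sample.

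Genes were kept by edgeR's default count filter (edgeR 4.0.16 in R 4.3.3), scaled by TMM and tested with the quasi-likelihood test, si-FRA1 against si-NT, with Benjamini-Hochberg adjustment over all genes tested. A gene rose or fell at an adjusted p under 0.05, and over 2-fold where its fold change also passed 2. DESeq2 1.42.0 was an alternative. CPM values use TMM-scaled library totals. The scripts were tested on simulated data. Intervals are 95% Wilson intervals.

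Named genes were a list of single genes, of which the study's text names only some (FOSL1, FSCN1, CLTA, RELL1, KIAA0040, ATOH8, GDF15, AXL, CDK6 and MITF), the 12 largest changes in each direction with at least 100 counts on average and groups that did not overlap, the 4 largest non-coding changes, and up to 4 members per list and direction past the threshold with at least 1 CPM on average, plus members whose role the list turns on. The members and lists were chosen with earlier results of these data known. Some genes that the rule selects are not reported here. Transcripts, 3'UTRs and promoters came from GENCODE release 44 for GRCh38. The 3'UTR sequences were read from the GENCODE transcript sequences and their sites then placed on GRCh38. The AP-1 matches were read from GRCh38 by coordinates.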

Additional observations from a re-analysis of the deposited data

How the results depend on the processing

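Counts of changed genes stayed within 1.5 times under every alternative run (DESeq2, upper-quartile scaling, library totals, no filter on low counts, all 12 RNA libraries in one fit, the replicate block, protein-coding genes only, and each library left out), except that 308 genes rose over 2-fold among genes with at least 10 counts in each library, against 468. DESeq2 called 483 genes risen and 516 fallen over 2-fold, and leaving out 1 library gave 433 to 493 risen and 460 to 509 fallen. Deviations of same-numbered libraries had correlations of 0.121, 0.045 and 0.029, and those of differently numbered libraries ran from -0.101 to 0.062. Such small values do not settle whether the replicate numbers pair the libraries. The replicate block gave 466 risen and 466 fallen genes over 2-fold. Of 4788 values of 369 named genes, 4713 kept their direction and side of the threshold, 75 lost the call and 0 changed direction. Most of these genes were chosen because they passed the threshold or had groups that did not overlap in the same libraries. Leaving out 1 library could then hardly turn their direction, so these counts are no independent check. Values were not counted where a setting filtered out the gene or gave it no adjusted p.

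List medians are given here less the median of all genes, which ran from -0.026 with library totals to 0.024 without a filter. Among genes with at least 10 counts in each library the values were -0.338 for histones, 0.409 for matrix proteases, 0.162 for Eph receptors and guidance cues, 0.165 for lysosome and autophagy and 0.176 for the TNF receptor superfamily. Matrix proteases were at 0.41 with all 12 libraries in the fit, and collagens at 0.042 with the replicate block. Without 1 library at a time the ranges were: FOS and JUN family -0.037 to 0.084, dedifferentiated state -0.039 to 0.06, DNA replication -0.573 to -0.53, mitosis and kinetochore -0.264 to -0.224, DNA repair -0.301 to -0.262. Further ranges were: p53 targets 0.413 to 0.447, BCL2 family and caspases 0.075 to 0.137, interferon-stimulated genes 0.395 to 0.441, cytokines and NF-kB feedback 0.116 to 0.321, IL-6 family and JAK-STAT 0.249 to 0.309. Others were: TGF-beta and BMP pathway 0.251 to 0.337, collagens -0.042 to 0.017, integrins and laminins 0.148 to 0.188, matrix proteases and inhibitors 0.326 to 0.418, actin-binding and motility -0.139 to -0.089. The next were: SRF and myocardin targets -0.12 to 0.001, YAP and TEAD pathway -0.325 to -0.236, receptor tyrosine kinases and ligands -0.052 to 0.011, Eph receptors, ephrins and guidance cues 0.068 to 0.187, ERK pathway output and feedback -0.083 to -0.019. Then came: integrated stress response and unfolded proteins -0.124 to -0.061, NRF2 and glutathione 0.289 to 0.317, cholesterol and fatty acid synthesis 0.08 to 0.103, glycolysis and hypoxia -0.125 to -0.089, respiratory chain subunits, nuclear 0.28 to 0.303. Also computed: mitochondrial ribosome 0.11 to 0.154, cytosolic ribosomal proteins 0.248 to 0.258, tRNA synthetases and translation factors -0.087 to -0.056, spliceosome -0.071 to -0.054, lysosome and autophagy 0.176 to 0.235. Next: heat shock proteins 0.025 to 0.064, TNF receptor superfamily -0.117 to 0.139, kinesins and tubulins -0.062 to -0.047, KRAB and other zinc finger genes 0.001 to 0.014, circadian clock 0.12 to 0.212. Last: siRNA machinery 0.174 to 0.212, gap junction and tight junction -0.181 to -0.065, snoRNA host and nuclear lncRNAs 0.04 to 0.115. The signs of the FOS and JUN, dedifferentiated, collagen, SRF, receptor tyrosine kinase and TNF receptor medians thus turned with single libraries, and the cause was not tested.

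The shares of promoters with a FRA1 peak for fallen, risen, not called and all genes were 51.3%, 42.1%, 48.1% and 53.7% at 2 times IgG plus 1, and 23.4%, 18.1%, 12.2% and 15.1% at 8 times. Within 1 kb they were 28.2%, 23.2%, 24.2% and 28.0%. Chosen after the data were seen, a width of 50 kb gave 83.1%, 80.0%, 75.4% and 79.0%, and counts scaled to one total gave 1.48%, 0.533%, 0.645% and 0.641%, since this scaling removes the excess of FRA1 over IgG by construction. Without 1 FRA1 sample the ranges were 35.9% to 41.5%, 32.8% to 37.1%, 30.8% to 38.8%, 35.1% to 43.6% in the same order, with each upper value from leaving out replicate 1. Genes with the 7 bases had a median of -0.096 when only the longest 3'UTR of each gene was used, and of -0.096 to -0.079 without 1 library. Depth limits the genes below about 1 CPM, and the single IgG sample limits every peak share.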

Other observations

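Small structured RNAs were mostly higher with si-FRA1. Of the 18 small nuclear RNA genes tested, which include the spliceosomal RNAs, 15 rose and 0 fell, with a median log2 fold change of 0.92. Of the 35 small nucleolar RNA genes, which guide modification of ribosomal RNA, 19 rose and 0 fell, with a median of 0.67. Many of these genes have near-identical copies, so the counts of genes are not counts of separate loci, and the values are read against a median of -0.003 over all genes. Of 686 genes annotated as antisense, 32 rose and 101 fell (median -0.15), and of 264 transcribed unprocessed pseudogenes 14 rose and 70 fell (median -0.16), to be read against 25.7% risen and 25.1% fallen over all genes tested. The strand setting of the counting is not given in the sources used here, so reads of an antisense gene and its partner may be mixed. The share of counts in protein-coding genes was lower, and that of small structured RNAs higher, in each of the 3 silenced libraries than in the controls. Shares of 1 total are tied to each other, and the part of this shift in other results was not tested.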
